A study of Mus musculus with 24 samples.

Results

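Lyz1 and Lyz2, the lysozyme genes of the mouse, were followed across mouse bone marrow-derived macrophages in which poly-A RNA had been sequenced. Both were chosen by symbol, because Lyz2 was very low in the cells labelled as Pparg knockout and because the transcripts share sequence. They are 2 of 23420 genes in each of 2 deposited tables. The series held 24 samples in 12 groups of 2. All cells came from the marrow of male C57BL/6 mice aged 3 months and were differentiated for 6 days with M-CSF. In the antagonist experiment (4 groups, 8 samples) the cells received a vehicle of DMSO and ethanol, IL-4, GW9662 (a synthetic antagonist of the nuclear receptor PPARγ) or IL-4 with GW9662, each for 24 h. In the memory experiment (8 groups, 16 samples) cells labelled as wild type or as Pparg knockout had IL-4 for 24 h or nothing. After washout and a further 24 h the RNA was taken without IL-4 or after 3 h of IL-4. These states are called unstimulated, first exposed, washed out and restimulated below. IL-4 was dosed at 20 ng per µl, printed here as labelled, and no GW9662 dose is given. The labels name neither the knockout allele nor any Cre line. They leave it unsaid if both samples of a group had different donor mice, so p-values measure the spread between samples, which may be technical.

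Lysozyme is a secreted enzyme that cuts the peptidoglycan of bacterial cell walls. The mouse has a pair of neighbouring genes for it. Lyz2, the M type, is known as a gene of macrophages and granulocytes, and Lyz1, the P type, as a gene of Paneth cells of the small intestine. Lyz2 is also a common insertion site for Cre recombinase, used to delete other genes in myeloid cells, and an insertion at its start codon disrupts the gene. In GENCODE M21 (mm10) Lyz2 lies on the minus strand at chr10:117277331-117282321 and Lyz1 at chr10:117287797-117292868, with 5475 bases between them. Each has 4 exons. The transcripts are 1316 bases (Lyz2) and 1263 bases (Lyz1) long.

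Positions 101 to 400 of the coding sequences are shown because reads from one gene can match the other wherever they do not differ. They were read from the GENCODE M21 transcripts and run over introns in the genome (Lyz2 chr10:117278168-117282142, Lyz1 chr10:117288630-117292738, minus strand, mm10). Capitals mark the 15 bases that differ between them in this stretch.
Lyz2: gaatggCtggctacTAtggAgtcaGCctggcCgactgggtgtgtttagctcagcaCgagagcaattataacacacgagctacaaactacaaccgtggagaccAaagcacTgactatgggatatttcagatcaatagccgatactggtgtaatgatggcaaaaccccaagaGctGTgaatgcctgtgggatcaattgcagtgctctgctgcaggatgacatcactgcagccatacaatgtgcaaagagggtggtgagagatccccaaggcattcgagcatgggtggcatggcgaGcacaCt
Lyz1: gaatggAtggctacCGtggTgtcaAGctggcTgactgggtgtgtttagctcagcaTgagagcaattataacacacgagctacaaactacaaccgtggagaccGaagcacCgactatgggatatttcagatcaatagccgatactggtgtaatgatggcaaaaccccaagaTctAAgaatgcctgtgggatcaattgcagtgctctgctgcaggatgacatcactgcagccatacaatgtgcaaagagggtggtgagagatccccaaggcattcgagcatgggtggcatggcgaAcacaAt
Over the whole coding sequence 22 of 444 bases differed. The capitals crowd into the first part of the stretch, and the longest unbroken stretch shared by both, 118 bases, runs over exons 2 to 4 (positions 276 to 393 of the coding sequence).

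Across the whole transcripts there were 8 shared runs of at least 50 bases, of which 2 were coding, 5 lay in the 3′ UTR and 1 spanned the stop codon. The longest run in the 3′ UTR had 104 bases. Of all 50-base words of the transcripts, 16.1% of those of Lyz1 were found in Lyz2 and 15.4% of those of Lyz2 in Lyz1. The length of 50 bases is a yardstick, since the read length is not given in the sources used here.

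**Figure D1:**
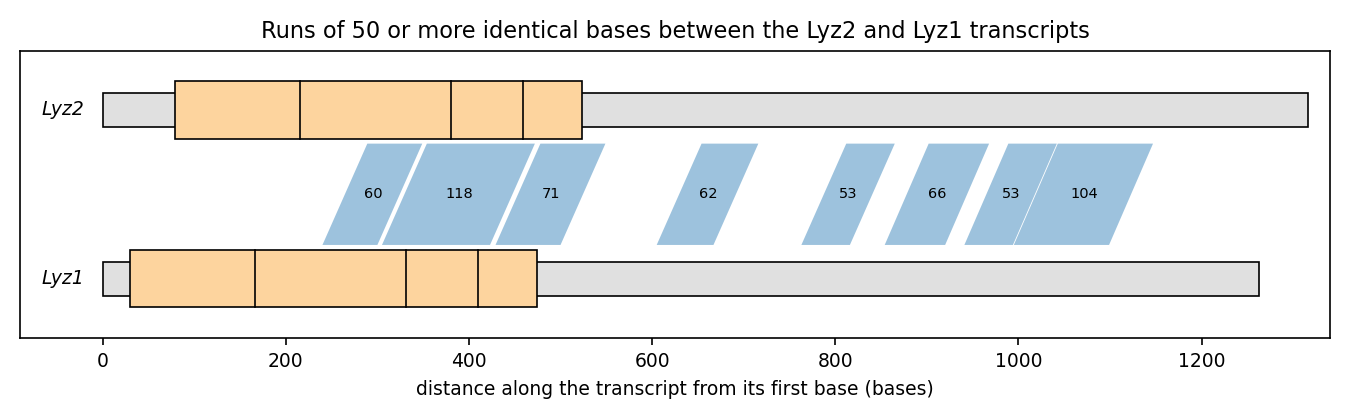
Map of the Lyz2 and Lyz1 transcripts, with the distance from the first base on the x axis, coding parts as tall boxes, UTRs as low boxes and exon ends as vertical lines. Blue bands join the 8 runs of at least 50 identical bases, each with its length in bases; the 118-base run joins exons 2 to 4.

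The stretches before the genes are shown because both genes had lower group means after 24 h of IL-4 than with vehicle; with GW9662 present the Lyz1 mean was higher with IL-4 (342 against 137 CPM), in groups that differ in counting kind. These are the bases from 250 to 51 before the RefSeq start (RefSeq GRCm38.p6, minus strand, Lyz2 chr10:117282323-117282522, Lyz1 chr10:117292919-117293118). Capitals mark ACTTCC, the reverse complement of GGAAGT, a core of sites for ETS factors such as PU.1.
Lyz2 upstream: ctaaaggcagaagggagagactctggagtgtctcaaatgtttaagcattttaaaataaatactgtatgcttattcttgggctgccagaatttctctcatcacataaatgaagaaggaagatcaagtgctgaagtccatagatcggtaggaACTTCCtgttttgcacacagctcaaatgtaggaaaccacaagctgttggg
Lyz1 upstream: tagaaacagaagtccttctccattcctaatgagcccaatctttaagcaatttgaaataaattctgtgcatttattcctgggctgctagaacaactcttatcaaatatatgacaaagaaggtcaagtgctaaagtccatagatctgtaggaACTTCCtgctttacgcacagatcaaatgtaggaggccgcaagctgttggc
In a global alignment 150 of 202 columns (74.3%) were identical. GGAAGT, searched on both strands, occurred once in each stretch and began 100 bases before the RefSeq start in both. For Lyz2 the GENCODE start (chr10:117282321) lies upstream of the RefSeq start. Counted from it, the distance for Lyz2 is smaller. GGAAGT was found in 14.6% of the same stretches of 32851 RefSeq promoters. The spacing of TTC and GAA with 4 bases between them, a type bound by STAT6 (4.78% of promoters), and AGGTCA repeated with 1 base between the copies, a type bound by PPARγ (0.0244%), were in neither. A match is only a match of letters.

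Each deposited column is the mean CPM (counts scaled to the library total) of both samples of a group. The values fell on a grid of whole reads from 2 libraries, so most could be separated into them. Within each group the libraries are named the deeper and the shallower one, since the columns carry no replicate number. Of 171808 values above 0, 99.5% had 1 solution. A read was worth 0.0349 CPM in the deepest library and 0.175 CPM in the shallowest. Lyz1 had 1 pair of reads in 9 of 12 groups. Lyz2 had 1 pair in the 4 knockout-labelled groups and 9 to 487 pairs in the others, where only the group mean can be given.

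Libraries differed in the level of genes that share sequence with others. Genes with at least 50% of their sampled words in other transcripts (178 in the antagonist and 211 in the memory table) had a median of 18.4 to 23.5 CPM in 14 libraries and of 44.7 to 63.8 CPM in the other 10, called here the low and the high counting kind. Ubb, a ubiquitin gene of this sort, was at 2.81 to 5.62 CPM in the low and 289 to 468 CPM in the high kind. All 8 knockout-labelled libraries were of the low kind. Of the 8 wild-type libraries 7 were high, and the shallower washed-out library was low. Of the 8 antagonist libraries 5 were low, among them both of GW9662, and the vehicle, IL-4 and combination groups had 1 of each kind. Counting kind and genotype therefore cannot be told apart, except after washout. The name counting kind stands for this difference in level only. The sources used here do not say why libraries differ in this way, and a difference in counting was not tested.

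Lyz2 was the most abundant gene of every wild-type group and ranked between 4747 and 7846 in the knockout-labelled groups. Its group mean was 30727 CPM in unstimulated wild-type cells, 24471 CPM after the first 3 h of IL-4, 27042 CPM after washout and 21966 CPM after restimulation. That is 2.16% to 3.09% of all counts in those columns. In the antagonist table Lyz2 stood at 23273 CPM with vehicle and 21451 CPM with GW9662, the second most abundant gene in both, and at 6409 CPM with IL-4 and 6575 CPM with IL-4 and GW9662, rank 11 in both. First-exposed wild-type cells are the only such group whose pairs all lie close together. There the 89 pairs put the deeper library at 24354 to 26754 CPM and the shallower at 22189 to 24589 CPM.

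In the knockout-labelled cells Lyz2 was low in every library. The unstimulated libraries had 42.6 CPM (467 reads) and 40.9 CPM (351 reads). First-exposed cells had 11.8 CPM (85 reads) and 30.5 CPM (174 reads). Washed-out cells had 34.1 CPM (285 reads) and 44.2 CPM (314 reads), and restimulated cells 14.0 CPM (120 reads) and 15.03 CPM (113 reads). All 8 values stood above the 0.274 to 0.526 CPM that 3 reads are worth in these libraries, so the Lyz2 counts were low and not at 0. They may include reads of Lyz1, since 16.1% of the 50-base words of Lyz1 occur in Lyz2. The part of such reads was not tested. The unstimulated and washed-out libraries overlapped in level, and so did the first-exposed and restimulated ones.

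**Figure D2:**
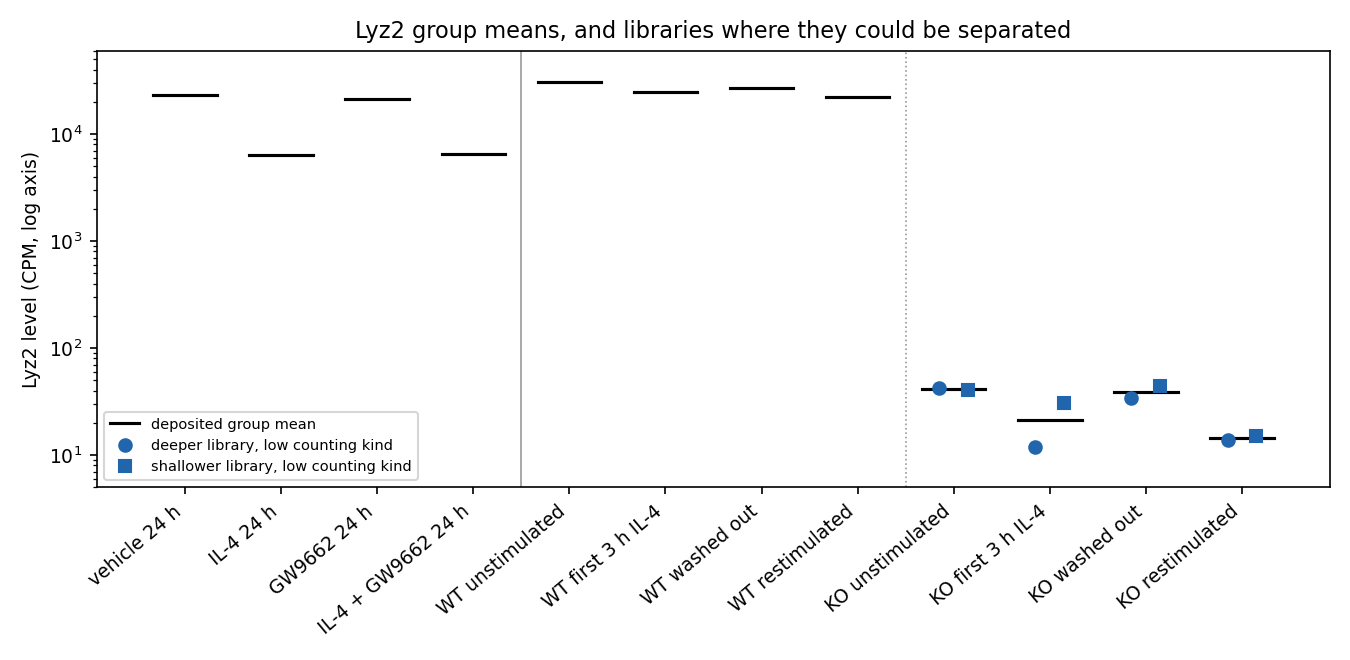
Lyz2 in CPM on a log axis, with the deposited mean of each of the 12 groups as a bar and the 8 knockout-labelled libraries as points. The 8 group means without the knockout label lie between 6409 and 30727 CPM, and the 8 knockout-labelled libraries between 11.8 and 44.2 CPM.

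Since the members were chosen for this loss, the genotype contrast of Lyz1 and Lyz2 is a description with no test. The wild-type mean of Lyz2 was 736 times the knockout-labelled mean without stimulation, 1156 times after the first 3 h of IL-4, 690 times after washout and 1515 times after restimulation. On the log2 scale with 1 CPM added the differences were -9.49, -10.11, -9.40 and -10.47. The GW9662 group of the antagonist experiment, with both libraries of the low kind, had a Lyz2 mean of 21451 CPM. The difference between the counting kinds in Lyz2 itself was not tested.

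Pparg, the gene named in the knockout label, encodes the nuclear receptor PPARγ. Its libraries spanned 19.0 to 34.8 CPM in wild type and 19.9 to 45.5 CPM in knockout-labelled cells, so the genotypes overlapped. A count over the whole gene checks the label only if the deleted part holds most of the reads, and the labels do not give that part.

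The genes around the lysozyme locus had overlapping levels in both genotypes. Of 18 other genes annotated within 300 kb of either start, 7 were in the tables and 4 reached 1 CPM in a memory group. Cct2, a subunit of the TRiC chaperonin, had means of 195 to 299 CPM in the wild-type and 206 to 297 CPM in the knockout-labelled groups. Frs2, an adaptor of FGF receptors, had 26.6 to 48.96 CPM and 33.8 to 42.4 CPM. Yeats4, a histone reader, had 41.5 to 52.4 CPM and 46.5 to 69.3 CPM. Cpsf6, a factor of mRNA 3′ end processing, had 72.7 to 88.9 CPM and 65.8 to 86.5 CPM. The ranges, which pool the states, overlapped for each of the 4, and their genotype difference was not tested. Within a state the log2 ratios of knockout-labelled to wild type lay between -0.21 (Cct2, restimulated) and 0.47 (Yeats4, washed out, and Frs2, restimulated). Best3, Lrrc10 and 9530003J23Rik, a lysozyme-like gene, were listed at 0 in all 8 memory groups.

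Lyz1 was far below Lyz2 in cells without the knockout label, and its level followed the counting kind of the library. In unstimulated wild-type cells its libraries had 2548 and 2557 CPM, both of the high kind. In first-exposed wild-type cells 9 pairs were possible, with 1955 to 2174 CPM in the deeper and 2598 to 2816 CPM in the shallower library. In restimulated wild-type cells 3 pairs were possible, with 747 to 1343 CPM and 3703 to 4299 CPM. These 6 libraries were all of the high kind. The unstimulated pair agreed closely, and the restimulated pair lay far apart under every solution.

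The washed-out wild-type group held both counting kinds. Its deeper library, of the high kind, had 2378 CPM (23684 reads), and its shallower library, of the low kind, had 39.1 CPM (345 reads), a 60.7-fold gap inside 1 group. The deposited mean was 1208 CPM, a value near neither library.

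In the antagonist table the same gap recurred. Under IL-4 the high-kind library had 678 CPM and the low-kind library 45.8 CPM, a 14.8-fold gap. Under IL-4 with GW9662 they had 641 CPM and 43.1 CPM, a 14.9-fold gap. Under GW9662, with both libraries of the low kind, Lyz1 was at 140 and 134 CPM. For vehicle 2 pairs were possible. The pair in step with the counting kinds, used below, gives 130 CPM in the low-kind and 2717 CPM in the high-kind library, and the other gives 1547 and 1300 CPM.

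**Figure D3:**
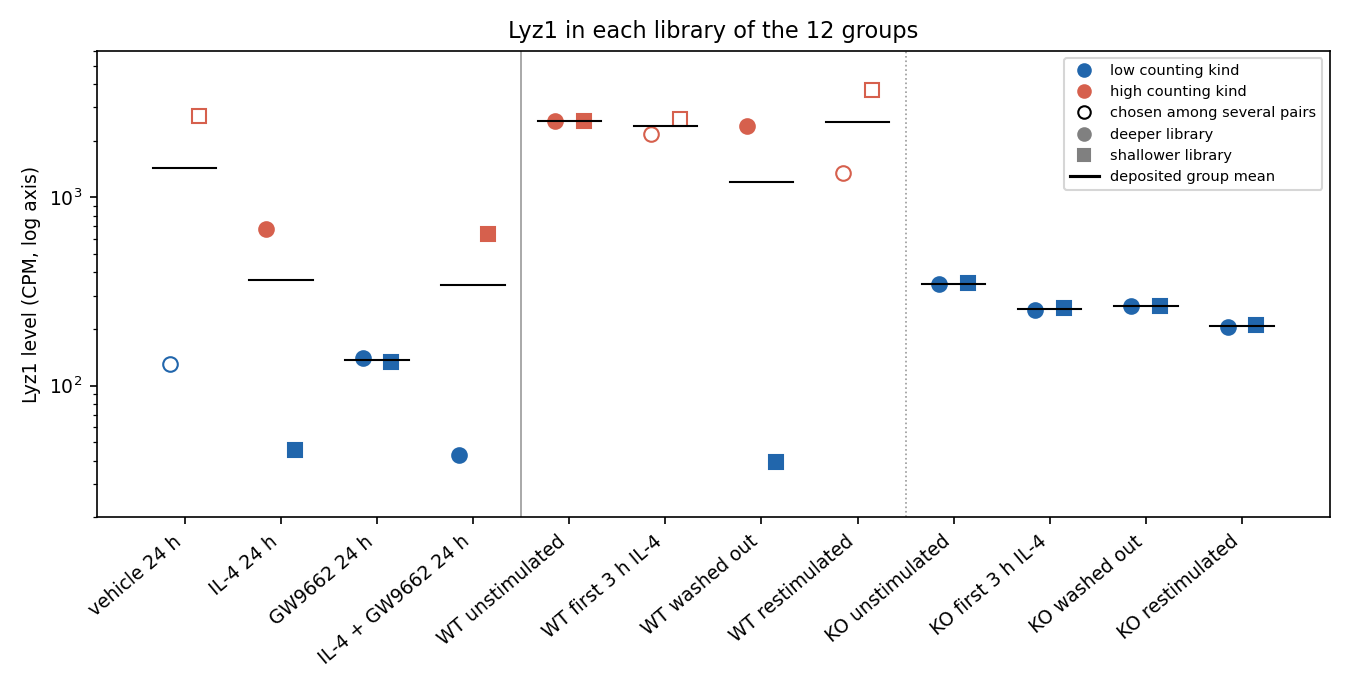
Lyz1 in CPM on a log axis in each of the 24 libraries, coloured by counting kind, with the deposited group means as bars and open symbols where several pairs of reads were possible. In the washed-out wild-type group the libraries lie at 2378 and 39.1 CPM, on either side of the knockout-labelled libraries.

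In knockout-labelled cells Lyz1 was the more abundant of the pair, and its libraries agreed closely. Unstimulated cells had 346 and 350 CPM, first-exposed cells 253 and 259 CPM, washed-out cells 263.8 and 263.7 CPM, and restimulated cells 204 and 209 CPM. The unstimulated libraries were the highest and the restimulated ones the lowest, with no overlap between either and the rest, while the first-exposed and washed-out libraries lay next to each other.

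The direction of the genotype difference in Lyz1 depended on which libraries were set side by side. By group means Lyz1 was 7.33 times as high in wild-type as in knockout-labelled cells without stimulation, 9.32 times after the first exposure, 4.58 times after washout and 12.2 times after restimulation. After washout, where a wild-type library of the low kind exists, it had 39.1 CPM and the knockout-labelled ones had 263.8 and 263.7 CPM, 6.74 times as much. That value rests on 1 wild-type library of 345 Lyz1 reads. In the antagonist table, which was scaled apart, the 5 low-kind libraries had 43.1 to 140 CPM, also below the 204 to 350 CPM of all knockout-labelled libraries; the experiments differ in treatment and timing, and this difference was not tested.

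**Figure D4:**
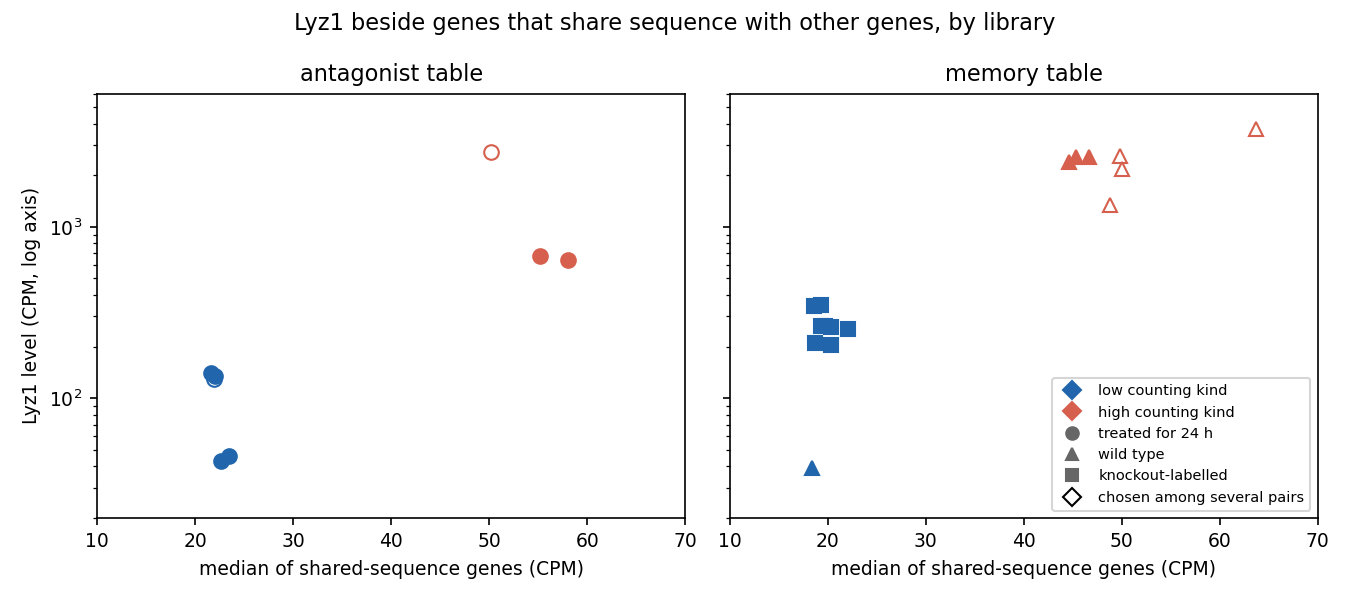
Lyz1 in CPM (log axis) against the median CPM of genes with 50% or more of their sampled words in other transcripts, 1 point per library, with the antagonist table on the left and the memory table on the right. The low-kind libraries sit at medians of 18.4 to 23.5 CPM and the high-kind ones at 44.7 to 63.8 CPM; among low-kind memory libraries the single wild-type point lies below all 8 knockout-labelled points.

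The share of Lyz1 in the sum of both genes moved with counting kind and genotype. Where both libraries were of the high kind, Lyz1 made up 7.67% of the summed group means (unstimulated wild type), 8.88% (first-exposed) and 10.3% (restimulated). In the groups with 1 library of each kind it made up 4.28% (washed-out wild type), 5.76% (vehicle), 5.35% (IL-4) and 4.94% (IL-4 with GW9662). Under GW9662, with 2 low-kind libraries, it made up 0.634%. Per kilobase of transcript, Lyz2 exceeded Lyz1 by 8.36 to 11.6 times in the first set, 15.7 to 21.5 times in the second and 150 times under GW9662.

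In the knockout-labelled cells the order was turned, and both genes could be counted in whole reads. Lyz1 made up 89.0% (95% exact binomial interval 88.1 to 90.0) and 89.5% (88.5 to 90.6) of the reads of both genes in the unstimulated libraries. In first-exposed cells it made up 95.5% (94.5 to 96.4) and 89.5% (87.9 to 90.9). In washed-out cells the shares were 88.6% (87.2 to 89.8) and 85.6% (84.1 to 87.1), and in restimulated cells 93.6% (92.4 to 94.7) and 93.3% (92.0 to 94.4). The intervals cover counting error only. The intervals of the first-exposed libraries did not overlap, nor did those of the washed-out libraries. Those of the unstimulated and of the restimulated libraries did.

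The genes were also added together, since reads may be shared between them. How shared reads were counted is not given in the sources used here, so the sum may still depend on it. The sum was 33280, 26857, 28250 and 24489 CPM in unstimulated, first-exposed, washed-out and restimulated wild-type cells. In the knockout-labelled cells it was 390, 277, 303 and 221 CPM, so that the wild-type sum was 85.3, 96.9, 93.3 and 111 times as high.

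Responses to IL-4 inside 1 genotype or in the antagonist table were not used in choosing the genes. They were tested with limma on log2 of CPM plus 1 over all genes of a table, with Benjamini-Hochberg adjusted p under 0.05 as the threshold. A gene whose reads could not be separated has no test, and its ratio of group means is given instead. For Lyz1 a single pair was used where several fit. It was the pair in step with the counting kinds for vehicle, and the most equal pair in first-exposed and restimulated wild-type cells.

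After 24 h of IL-4 the group mean of Lyz2 was 6409 CPM against 23273 CPM with vehicle, 3.63 times lower (log2 -1.86). With GW9662 present it was 6575 CPM against 21451 CPM, 3.26 times lower (log2 -1.71). In each of the 9 possible pairs both IL-4 libraries were at or below 10986 CPM. In each of the 14 pairs of the combination they were at or below 13001 CPM. The vehicle and GW9662 means were 23273 and 21451 CPM, but these groups had 487 and 427 possible pairs. Those pairs put a vehicle library between 91.4 and 46455 CPM and a GW9662 library between 11.1 and 42890 CPM. Whether libraries with and without IL-4 overlapped in Lyz2 therefore cannot be told. GW9662 alone and GW9662 added to IL-4 went with log2 ratios of -0.12 and 0.04. No test could be made for these Lyz2 ratios. In bulk RNA, fewer cells of a type and less RNA per cell cannot be told apart.

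Lyz1 followed the same pattern once libraries of 1 counting kind were compared. Among low-kind libraries it was 130 CPM with vehicle and 45.8 CPM with IL-4, and 140 and 134 CPM with GW9662 and 43.1 CPM with both agents, so that the libraries with IL-4 lay below those without. In the fit on all libraries without a term for counting kind, Lyz1 did not pass for IL-4 against vehicle (log2 -1.74, SE 3.04, limma adjusted p = 0.77), where 17.2% of genes passed, nor for the combination against GW9662 (log2 0.29, SE 1.31, adjusted p = 0.87), where 51.3% did. With low-kind libraries alone the differences were -1.49 (SE 0.08, adjusted p = 6.6e-06) and -1.64 (SE 0.07, adjusted p = 1.9e-06). In that fit 61% and 48.6% of all genes passed. It was added after the data were seen and leaves 1 library in each of 3 groups, which are assumed to vary like the GW9662 pair. The vehicle value also rests on the choice among 2 pairs. With counting kind as a term in the fit on all libraries both differences passed too, at -1.74 (SE 0.17) and -1.76 (SE 0.08), where 30.1% and 58.9% of genes passed.

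For GW9662 alone and for GW9662 added to IL-4 no change of Lyz1 passed in any of these fits. Each value that involves vehicle rests on the vehicle pair chosen by counting kind. With the other pair the low-kind vehicle library would be at 1547 CPM, against 140 and 134 CPM with GW9662. For GW9662 against vehicle that pair gave -3.36 over all libraries (limma adjusted p = 0.99). The fits by counting kind were not run on it. GW9662 against vehicle gave -2.11 (SE 1.39, limma adjusted p = 0.99) over all libraries and 0.07 (SE 0.07, adjusted p = 1.0) over low-kind libraries. The combination against IL-4 gave -0.08 (SE 3.01, adjusted p = 1.00) and -0.09 (SE 0.08, adjusted p = 0.44). With limma 0% of all genes passed in either comparison over all libraries, and 0.0369% and 27.9% over low-kind libraries. The IL-4 response with GW9662 minus that without it was 2.03 (SE 3.31, adjusted p = 1.00) over all libraries and -0.16 (SE 0.11, adjusted p = 0.33) within the low kind, where 0% and 9.47% of genes passed. With counting kind as a term these differences of Lyz1 were -0.071, -0.084 and -0.013, none past the threshold, and 0.682%, 0% and 0.018% of genes passed.

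In wild-type cells of the memory experiment the Lyz2 mean was lower after the first 3 h of IL-4 (log2 ratio -0.33), after washout (-0.18) and after restimulation against washed-out cells (-0.30), and lower after the second than after the first exposure (-0.16). None of these ratios has a test, because the Lyz2 reads of every wild-type group had several possible pairs.

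Lyz1 in wild-type cells passed only for washed-out against unstimulated cells (log2 -3.05, SE 0.94, limma adjusted p = 0.042), where 13.8% of genes passed. Without the low-kind library at 39.1 CPM the call was lost: the high-kind library at 2378 CPM, against 2548 and 2557 CPM, gave -0.10 (SE 0.20, adjusted p = 0.91) in a fit on high-kind libraries. The first exposure gave -0.10 (SE 0.75, adjusted p = 0.92), with 49.5% of genes passing. The second against the first exposure gave -0.09 (SE 2.28, adjusted p = 1.00), with 0.441% passing, and restimulation against washout 2.85 (SE 2.35, adjusted p = 0.53), with 6.39% passing. Restimulation passed with the high-kind washed-out library left out (5.80, adjusted p = 7.9e-13) and with the deeper restimulated library left out (3.58, adjusted p = 0.039). High-kind libraries alone gave -0.10 for the first exposure, -0.09 for the second against the first and -0.09 (SE 0.37) for restimulation against washout. None of the 4 passed in that fit, in which 51.7% (first exposure), 4.51% (washout), 1.56% (second against first) and 4.19% (restimulation) of genes did. With counting kind as a term the 4 values were the same and none passed, where 48.7%, 12.7%, 6.71% and 10.9% of genes did. Only the washed-out wild-type group held both kinds in this experiment. The term therefore works like leaving out its low-kind library, and the match of the values was fixed in advance.

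In knockout-labelled cells, where every library was of the low kind, the low Lyz2 count fell with IL-4. The part of reads shared with Lyz1 in this count was not tested. From 42.6 and 40.9 CPM the libraries came to 11.8 and 30.5 CPM after the first 3 h. This was a fall by 1.09 on the log2 scale (SE 0.26, limma adjusted p = 0.0045), with 43.9% of genes passing in that comparison. The call was lost without group weights (adjusted p = 0.071) and without the filter on low values (adjusted p = 0.053). Leaving out 1 library also ended it in 3 of 4 cases: the difference was -0.44 (adjusted p = 0.074) without the deeper first-exposed library, and -1.06 (0.10) and -1.12 (0.088) without the deeper or the shallower unstimulated one. Without the shallower first-exposed library it was -1.74 (adjusted p = 1.9e-05). From 34.1 and 44.2 CPM after washout the level came to 14.0 and 15.03 CPM after restimulation, a fall by 1.36 (SE 0.27, adjusted p = 0.0018), with 35.3% of genes passing. Leaving out the deeper restimulated library raised its adjusted p to 0.055. Washout itself gave -0.10 (SE 0.26, adjusted p = 0.83, 19.5% of genes passing), and the second against the first exposure -0.38 (SE 0.27, adjusted p = 0.36, 22.4% of genes passing). The last of these took either sign with 1 first-exposed library left out, -1.03 without the deeper and 0.27 without the shallower one.

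Lyz1 in the knockout-labelled cells stood lower in each of these comparisons, with libraries that did not overlap in 4 of 4. Over all libraries, whose standard error for Lyz1 spans both counting kinds, none passed: -0.44 (SE 0.76, limma adjusted p = 0.67) for the first exposure, -0.40 (SE 0.77, adjusted p = 0.77) for washout, -0.31 (SE 0.79, adjusted p = 0.82) for the second against the first exposure, and -0.35 (SE 0.79, adjusted p = 0.78) for restimulation. Over low-kind libraries alone the same 4 differences had an SE of 0.05 each and adjusted p of 3.7e-05, 3.9e-04, 0.0022 and 4.5e-04, where 42.9%, 18.4%, 21.8% and 34.2% of all genes passed. With counting kind as a term in the fit on all libraries, the adjusted p were 2.4e-04, 0.0024, 0.018 and 0.0046, where 45.1%, 20.8%, 24.2% and 36.5% of genes passed.

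**Figure D5:**
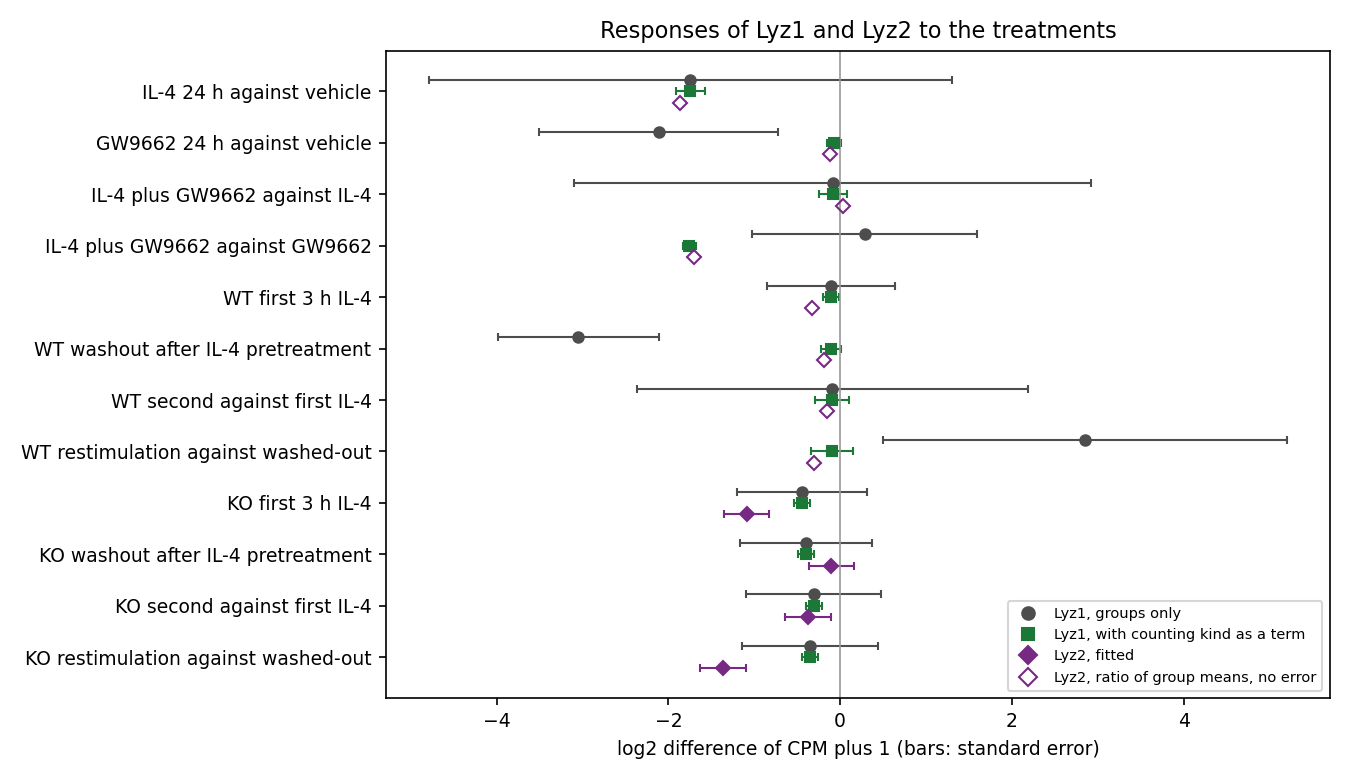
Log2 differences of CPM plus 1 on the x axis for the 12 comparisons, with standard errors as bars, for Lyz1 fitted on groups only, Lyz1 with counting kind as a term, and Lyz2 (open where only a ratio of group means exists, with no error). The standard errors of Lyz1 shrink when counting kind is a term, and the combination against GW9662 moves from 0.29 to -1.76.

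Whether the response of Lyz1 differed by genotype was tested as an interaction. None of the 4 tests passed: the knockout-labelled minus the wild-type response was -0.34 (SE 1.06, limma adjusted p = 0.92) for the first exposure, 2.65 (SE 1.22, adjusted p = 0.67) for washout, -0.22 (SE 2.41, adjusted p = 1.00) for the second against the first exposure and -3.20 (SE 2.48, adjusted p = 0.70) for restimulation. With limma 0.0263%, 0%, 0.00841% and 0% of all genes passed these tests. With counting kind as a term the values were -0.34, -0.30, -0.22 and -0.26, with adjusted p of 0.35, 1.00, 0.82 and 0.79, where 0.114%, 0.0523%, 2.47% and 0.751% of genes passed. That term is set by the washed-out wild-type group alone, so it works like leaving out the low-kind library of that group. Leaving out the high-kind washed-out wild-type library made the washout and restimulation values 5.59 and -6.15, both then past the threshold (adjusted p = 1.6e-18 and 6.8e-13), and leaving out its low-kind partner made them -0.30 and -0.26, neither past it (adjusted p = 1.00 and 0.93). For Lyz2 the difference of the log2 ratios was -0.62 for the first exposure, 0.094 for washout, -0.36 for the second against the first exposure and -1.07 for restimulation, with no test.

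The genes whose pattern was most like that of Lyz2 over the 8 memory group means were Htatip2, H2-Q1, H2-Q10, Ubb and Gm1821, by Pearson r of log2 CPM plus 1 among 8841 genes that averaged 10 CPM or more (r from 0.992 to 0.996). Htatip2, an oxidoreductase gene, shared no sampled word with other genes and had 59.2 to 71.0 CPM in wild-type and 5.57 to 9.57 CPM in knockout-labelled groups. H2-Q1 and H2-Q10 are class I histocompatibility genes of a multigene family, so their counts may be split between copies. They had 31.7 to 57.2 and 17.6 to 28.5 CPM in wild type, and under 0.4 CPM in every knockout-labelled group. Ubb and Gm1821 share 60.7% and 88.7% of their words with other genes and follow the counting kind.

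For Lyz1 the 5 most alike were Cxx1a, Dynlt1a, Rab11b, Gm12504 and Hspa8 (r from 0.995 to 0.996). Dynlt1a, of a dynein light chain family, and Hspa8, a heat shock cognate, share 59.1% and 73.2% of their words, and Rab11b and Gm12504 share 9.90% and 5.02%. Hspa8 had 502 to 742 CPM in wild-type and 190 to 233 CPM in knockout-labelled groups. Like Lyz1, all 5 dipped among wild-type groups after washout, the group with 1 low-kind library. These correlations rest on 8 points that share genotype and counting kind.

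Of the other 9 genes of the lysozyme and lysozyme-like family, only Lyzl4, a lysozyme-like gene best known from the testis, was above 1 CPM in any group. It had 11.0 and 10.8 CPM with vehicle and 17.6 and 30.5 CPM with IL-4, a rise by 1.02 on the log2 scale (SE 0.29, limma adjusted p = 0.0499). With GW9662 it had 11.9 and 13.4 CPM and with both agents 22.2 and 18.3 CPM, a rise by 0.63 (SE 0.12, adjusted p = 0.0039). The group mean of Lyz2 was lower in both of these comparisons, with no test. In knockout-labelled cells Lyzl4 rose after washout (19.4 and 20.7 CPM to 27.5 and 32.8 CPM, log2 0.56, SE 0.13, adjusted p = 0.0071) and was higher after the second than after the first exposure (log2 0.63, SE 0.14, adjusted p = 0.0033). In wild-type cells these differences were 0.16 (SE 0.16, adjusted p = 0.58) and 0.82 (SE 0.39, adjusted p = 0.54), and neither passed the interaction test between genotypes (adjusted p = 0.69 and 1.00). It shares no sampled word with other genes.

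Among other antimicrobial genes of myeloid cells few passed after 24 h of IL-4. Of 25, 19 could be tested, of which 2 fell and 0 rose, where 8.02% of all genes fell and 9.19% rose. They were Lcn2, an iron-scavenging lipocalin (49.5 to 15.997 CPM, log2 -1.58, adjusted p = 0.048), and Ncf1, a subunit of the phagocyte oxidase (700 to 376 CPM, log2 -0.89, adjusted p = 0.011). The list's median log2 ratio was -0.83, and that of all genes -0.01. With GW9662 present, 13 of 19 fell with IL-4 and 1 rose, where 25.2% of all genes fell and 26% rose. After the first 3 h, 4 of 19 tested fell and 3 rose in wild-type cells and 6 of 16 fell and 1 rose in knockout-labelled cells, where 25% and 22.5% of all genes fell and 24.5% and 21.4% rose. Cybb, the catalytic subunit of that oxidase, went from 1133 to 731 CPM in wild type and from 1195 to 793 CPM in knockout-labelled cells.

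Genes listed for the sensing of peptidoglycan, the substrate of lysozyme, and for related roles split in both directions. After 24 h of IL-4, 5 of the 10 tested fell and 3 rose, where 8.02% of all genes fell and 9.19% rose. The largest called changes were falls. Tlr2, a receptor for bacterial lipoproteins, went from 224 to 26.9 CPM (log2 -3.02, limma adjusted p = 8.4e-05). Nod1 and Nod2, cytosolic sensors of peptidoglycan fragments, went from 66.6 to 26.2 CPM and from 14.4 to 5.27 CPM. After the first 3 h, 4 of 10 tested fell and 3 rose in wild-type cells, where 25% of all genes fell and 24.5% rose. In knockout-labelled cells 5 of 10 fell and 2 rose, where 22.5% of all genes fell and 21.4% rose. Tlr2 then went from 185 to 36.3 CPM in wild type and from 206 to 42.5 CPM in knockout-labelled cells. Ripk2, the kinase downstream of the NOD proteins, rose from 13.7 to 47.8 CPM and from 14.8 to 53.7 CPM.

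The direction of lysosomal genes differed between comparisons. After 24 h of IL-4, 3 of 15 tested fell and 3 rose, with a list median of 0.13, where again 8.02% of all genes fell and 9.19% rose. Ctsk and Acp5, a cathepsin and an acid phosphatase best known from osteoclasts, went from 1.76 to 13.9 CPM and from 9.89 to 55.3 CPM, and Ctsc, the cathepsin that activates granule proteases, from 719 to 255 CPM. With the first 3 h of IL-4, 6 of 17 tested fell and 1 rose in wild-type cells. In knockout-labelled cells 9 of 19 fell and 1 rose. Of all genes 25% and 22.5% fell and 24.5% and 21.4% rose there. After washout 5 of 21 tested rose and 1 fell in wild-type cells, and 11 of 22 rose and 2 fell in knockout-labelled cells, where 7.09% and 9.35% of all genes rose and 6.71% and 10.2% fell.

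Among transcription factors listed as regulators of Lyz2, Cebpa, a C/EBP factor of myeloid cells, rose from 291 to 575 CPM after 24 h of IL-4, and from 138 to 269 CPM and from 182 to 247 CPM after 3 h in wild-type and knockout-labelled cells. Ets1 rose from 8.07 to 24.7 CPM after 24 h, and Irf8, a macrophage factor, went from 483 to 306 CPM. Cebpb fell after 3 h, from 36.8 to 24.7 CPM in wild-type and from 42.0 to 20.6 CPM in knockout-labelled cells. After 24 h 2 of 9 tested factors fell and 2 rose (8.02% and 9.19% of all genes). After 3 h 7 of 10 fell and 1 rose in wild-type cells (25% and 24.5% of all genes), and 5 of 9 fell and 1 rose in knockout-labelled cells (22.5% and 21.4%).

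The 9 macrophage markers found in the tables summed to 14510 to 16928 CPM in wild-type, 16669 to 18869 CPM in knockout-labelled and 20134 to 24351 CPM in antagonist groups, with none at 0. Up to 12194 CPM of such a sum was Lgals3, a galectin. The sum was higher after 24 h of IL-4, at 24351 CPM against 20134 CPM with vehicle. With GW9662 present it was 23394 CPM with IL-4 against 20736 CPM without. After 24 h of IL-4, 3 of the 4 macrophage markers tested fell and 0 rose, where 8.02% of all genes fell and 9.19% rose. The rest of the 9 markers had no test. In this comparison the Lyz2 mean was lower. Cd14, a co-receptor for lipopolysaccharide, went from 571 to 60.7 CPM and Fcgr1, an Fc receptor, from 530 to 90.1 CPM. Mertk, a receptor for dying cells, went from 96.3 to 45.6 CPM (limma adjusted p = 4.0e-05, 3.2e-04 and 0.020 for the 3 genes). Their part in the Lyz2 difference was not tested. Neutrophils also make lysozyme. Their 11 markers summed to 148 to 342 CPM in wild-type and 155 to 263 CPM in knockout-labelled groups, ranges that overlap. In unstimulated, first-exposed, washed-out and restimulated wild-type cells they summed to 198, 254, 148 and 342 CPM. The highest of these sums was in the wild-type group with the lowest Lyz2 mean (21966 CPM). Up to 219 CPM of a memory sum and 246 CPM of an antagonist sum was Csf3r. In wild-type cells Csf3r rose from 53.6 to 115 CPM after the first 3 h of IL-4, the 1 neutrophil marker of 9 tested that passed. After washout 5 of 8 tested fell and 1 rose in wild-type cells, where 6.71% of all genes fell and 7.09% rose. In the antagonist table the neutrophil markers summed to 811 CPM with vehicle and 871 CPM with GW9662. They summed to 571 CPM in both groups with IL-4, so they were lower where Lyz2 was lower. Their part in the Lyz2 difference was not tested.

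Other cell types left few reads, with exceptions. The 7 dendritic cell markers, almost all of it Itgax, summed to 31.96 CPM with vehicle and 1905 CPM with IL-4. The 6 fibroblast markers summed to 5.48 to 6.60 CPM in 3 wild-type groups and to 560 CPM in restimulated wild-type cells, where Col1a1 was at 492 CPM in the deeper and 16.9 CPM in the shallower library. The deeper library is also the one with the lower Lyz1, and the part of these cells in the Lyz1 gap was not tested. Mast cell and lymphoid markers summed to at most 6.10 CPM in any group.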

How the data were processed

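Poly-A RNA of 24 samples had been sequenced on an Illumina HiSeq instrument after TruSeq preparation, per the labels. TopHat2 2.0.7, Cufflinks 2.0.2 and mm10 are named in the submitters' processing notes; the counter and read length are not given in the sources used here. Per the file headers and values, the authors deposited 2 tables of a normalized signal, the CPM averaged over both samples of a group, with column sums of 951943 to 1054527.

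Each mean was separated into whole reads of 2 libraries (99.5% of values above 0 had 1 solution; the step was tested on simulated data). Reads in separated genes numbered 4421650 to 18842710 per library. Libraries were assigned a counting kind from genes with shared sequence (words of 50 bases, GENCODE M21). For the vehicle Lyz1 values, that kind also chose between 2 pairs of reads. limma 3.58.1 (R 4.3.3) was fitted to log2(CPM + 1) with a trend, 1 coefficient and 1 weight per group, for genes that averaged 1 CPM or more in a compared group. Values with several solutions were left out, except those of Lyz1. In first-exposed and restimulated wild-type cells the most equal Lyz1 pair was used, which gives the smallest spread between those libraries. p-values were Benjamini-Hochberg adjusted over all genes tested, with a threshold of 0.05, two-sided. The experiments were scaled apart and tested apart. Every deposited column was mapped to a group.

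Members and lists were chosen with earlier results of these data known. Named genes were both members, the 5 most alike to each by Pearson r, neighbours within 300 kb, Pparg, and from each list the 4 largest called changes per comparison. Lyzl4, Itgax, Col1a1, Ubb and the marker levels were added for the statements they serve. Alternatives varied the pseudocount, filter, weights, scaling, model, counting-kind term, summing of both genes, pairs of reads and libraries.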

Additional observations from a re-analysis of the deposited data

How the results depend on the processing

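No paired analysis was possible because the deposited columns carry no replicate numbers. Of 255 alternative values, leave-one-out aside, 207 kept their direction and their side of the threshold. With counting kind as a term, Lyz1 passed for IL-4 against vehicle (-1.74) and in knockout-labelled cells (-0.44 first exposure, -0.40 washout, -0.31 second against first, -0.35 restimulation). It no longer passed for wild-type washout (-0.10), and took the other sign for the combination against GW9662 (-1.76), the IL-4 response with minus without GW9662 (-0.013), wild-type restimulation (-0.092) and the washout interaction (-0.30). Libraries of 1 kind alone, chosen after seeing the data, gave -1.49, 0.072 (GW9662 against vehicle), -1.64 and -0.16 in the antagonist table. In the memory table they gave the same values as the term, which was fixed in advance because only the washed-out wild-type group holds both kinds. Wild-type washout of Lyz1 also missed the threshold with no filter (-3.05), no weights (-3.05) and limma-voom (-3.03). Knockout-labelled first exposure of Lyz2 missed it with no filter (-1.09) and no weights (-1.09). Another pair of reads, also added later, turned the second-against-first interaction of Lyz1 to 0.10. Another vehicle pair gave -2.99 for IL-4.

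Summing both genes gave -0.49, -0.36, -0.32 and -0.45 in knockout-labelled cells (first, washout, second against first, restimulation), all past the threshold. It gave -0.19 (GW9662), -1.64 (combination against GW9662), -0.31, -0.24, -0.13 and -0.21 (wild-type first, washout, second against first, restimulation) in place of Lyz2. It gave -6.41, -6.59, -6.54 and -6.78 for genotype in the 4 states. A pseudocount of 0.1 CPM gave -10.56 for Lyz2 after restimulation. The Lyz1 share by library was 95.5% and 89.5% (first-exposed) and 88.6% (washed-out, deeper) in knockout-labelled cells. The cause of these shifts was not tested.

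Leaving out each library in turn, Lyz1 ranged from -3.93 to 0.44 (IL-4), -4.30 to 0.072 (GW9662), -2.02 to 1.85 (combination against IL-4), -1.64 to 2.22 (combination against GW9662) and -0.16 to 4.22 (response with minus without GW9662). In wild-type cells it ranged from -0.23 to 0.025 (first), -5.99 to -0.10 (washout), -0.82 to 0.64 (second against first) and -0.092 to 5.80 (restimulation). In knockout-labelled cells it ranged from -0.46 to -0.43, -0.41 to -0.39, -0.33 to -0.29 and -0.37 to -0.33, and Lyz2 from -1.74 to -0.44, -0.28 to 0.081, -1.03 to 0.27 and -1.55 to -1.18. Interactions of Lyz1 ranged from -0.47 to -0.21, -0.30 to 5.59, -0.95 to 0.51 and -6.15 to -0.26. The genotype ratio ranged from -2.88 to -2.86, -3.34 to -3.08, -3.17 to 2.72 and -4.16 to -2.69 for Lyz1, and from -9.52 to -9.46, -10.90 to -9.60, -9.59 to -9.22 and -10.52 to -10.42 for Lyz2 in the unstimulated, first-exposed, washed-out and restimulated states. For Lyz2 outside the knockout-labelled groups the limit is the separation of reads; 3 reads were worth 0.105 to 0.526 CPM in these libraries.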
